A study of Mus musculus with 45 samples.

Results

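Collagen chains, the protein subunits of every collagen in the body, were followed at the RNA level in primary breast tumors, in implanted polymer scaffolds, in lungs and in spleens. The chain genes were taken as every gene symbol made of Col, a type number, the letter a and a chain number, which gave 44 of the 55367 symbols in the table of counts. By textbook class they were 11 fibrillar chains, 6 basement membrane (type IV) chains, 6 beaded filament (type VI) chains, 9 fibril-associated chains, 4 transmembrane chains, 3 short chain network chains, 2 multiplexins and 3 others that include the anchoring fibril chain Col7a1. Female Balb/c mice were 7 to 8 weeks old when a porous polycaprolactone disk, the scaffold, was placed under the skin of the upper back. After 2 weeks the mice received cells of 1 of 3 lines in a mammary fat pad, and tissues were taken on day 14 after that. The 67NR line is nonmetastatic and the 4T1 line is metastatic. The authors describe the 4T07 line as invasive but nonmetastatic, and in their methods as micro-metastatic. All 3 lines come from 1 spontaneous mouse mammary tumor. Each is a single line, so line and metastatic grade cannot be told apart. Control mice carried a scaffold and no tumor, and so gave scaffolds, lungs and spleens but no tumor tissue. The 15 groups (3 tumor groups and 4 groups each of scaffolds, lungs and spleens) held 3 libraries each, and the labels do not say which tissues came from 1 mouse, so p-values measure the spread between these libraries.

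Collagens are built from chains that wind into a triple helix in the secretory pathway, after hydroxylation of their prolines and lysines, and are then secreted, trimmed and crosslinked. Fibrillar collagens such as types I, III and V form the rope-like fibers of connective tissue, and fibril-associated collagens such as types XII and XIV decorate their surface. Type IV collagen forms the sheet of basement membranes under epithelium and endothelium, type VI forms fine filaments around cells, and type VII anchors epithelial basement membranes to the tissue below. Fibroblasts make most fibrillar collagen in connective tissue, and a foreign body implanted under the skin is walled off by collagen-rich tissue. In tumors, collagen comes both from the cancer-associated fibroblasts and, for some chains, from the cancer cells.

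The stretch just before the start of 4 chain genes is shown because these genes were called higher in both the 4T07 and the 4T1 tumors and stand for 3 classes, fibrillar (Col1a2 and Col3a1), beaded filament (Col6a3) and anchoring fibril (Col7a1). Each is the 250 bases before the RefSeq start site on GRCm38.p6, and capitals mark the CCAAT box (CCAAT or, on the other strand, ATTGG) and the GC box (GGGCGG or CCGCCC), with no base in both. The windows of these 4 genes come from a table that matched 35 of the 44 members with 38 windows. Col1a1 was among the 9 members without a match.
Col1a2, chr6:4505368-4505617, plus strand: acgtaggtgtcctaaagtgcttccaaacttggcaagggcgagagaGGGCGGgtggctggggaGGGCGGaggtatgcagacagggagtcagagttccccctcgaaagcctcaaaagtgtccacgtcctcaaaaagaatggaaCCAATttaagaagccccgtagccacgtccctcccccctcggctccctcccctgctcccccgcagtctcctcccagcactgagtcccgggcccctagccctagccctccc
Col3a1, chr1:45311288-45311537, plus strand: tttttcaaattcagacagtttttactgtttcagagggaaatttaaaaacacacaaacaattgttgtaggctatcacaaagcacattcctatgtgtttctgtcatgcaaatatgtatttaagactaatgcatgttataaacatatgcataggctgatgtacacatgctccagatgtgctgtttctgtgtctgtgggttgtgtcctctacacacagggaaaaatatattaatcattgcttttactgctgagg
Col6a3, chr1:90843972-90844221, minus strand: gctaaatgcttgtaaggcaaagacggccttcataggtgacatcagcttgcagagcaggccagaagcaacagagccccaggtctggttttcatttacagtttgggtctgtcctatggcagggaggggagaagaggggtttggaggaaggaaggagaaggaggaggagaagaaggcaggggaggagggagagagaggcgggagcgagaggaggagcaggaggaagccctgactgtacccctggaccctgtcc
Col7a1, chr9:108953336-108953585, plus strand: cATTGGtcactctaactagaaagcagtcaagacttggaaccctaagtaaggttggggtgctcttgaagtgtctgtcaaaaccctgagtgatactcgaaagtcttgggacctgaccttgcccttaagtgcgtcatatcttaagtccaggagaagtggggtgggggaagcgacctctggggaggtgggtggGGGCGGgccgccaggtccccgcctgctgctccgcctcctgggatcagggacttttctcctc

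The Col1a2 window held 1 CCAAT box and 2 GC boxes, the Col7a1 window 1 of each, and the Col3a1 and Col6a3 windows neither. Over all 32851 windows of this length in the table, 33.8% held a CCAAT box and 32.7% a GC box, against 13 (34.2%) and 22 (57.9%) of the 38 windows of members. The matches describe letters only, and genes with and without them rose in the tumors below. The start sites of Col4a1 (chr8:11312826, minus strand) and Col4a2 (chr8:11312805, plus strand), the paired chains of the common type IV molecule, lay 21 bases apart on opposite strands.

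Libraries were made from the 3′ ends of transcripts, so a count is a tag from the end of a transcript, and values are given as CPM, the count divided by the library total and multiplied by 1000000, not divided by gene length; levels are therefore compared between groups for 1 gene and not between genes. Totals ranged from 3491888 to 8175380 counts, 3 counts (0.367 to 0.859 CPM in a library) were taken as the smallest readable level, and no 2 libraries were identical. After ± stands the SD over 3 libraries for a level and the standard error for a log2 fold change, and fold changes use edgeR's TMM scaling, so they can differ from ratios of the CPM printed. Called means an adjusted p below 0.05 (edgeR, Benjamini-Hochberg over all genes tested) and a fold above 2 in comparisons of tumors or between tissues, and an adjusted p below 0.1 with the same fold within scaffolds, lungs or spleens. Markers were read beside the results. The 5 lung epithelium genes summed to 34911 to 37028 CPM in control lungs and to 5693 to 14287 CPM in the 4T07 lungs, which also held 283 to 376 CPM of 5 B cell and splenic red pulp genes against 107 to 128 CPM in control lungs. All 3 libraries labelled 4T07 lung thus stood apart from control lungs.

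Among the tumors, collagen RNA was lowest in 67NR. The 44 members summed to 1861 to 2022 CPM there, to 5737 to 8124 CPM in the 4T07 tumors and to 7648 to 10974 CPM in the 4T1 tumors, against 8799 to 13180.4 CPM in control scaffolds, 2266 to 2624 CPM in control lungs and 741 to 804 CPM in control spleens. Of the 42 members that passed the filter in tumors (more than 10 counts over the 9 libraries, which Col2a1 and Col26a1 did not reach), 20 were called in 4T07 against 67NR tumors, 17 higher and 3 lower, which is 47.6% of those tested where 28.9% of all 20508 genes were called. In 4T1 against 67NR tumors 20 members were called, 18 higher and 2 lower, or 47.6% where 20.7% of all genes were called. The median log2 fold change over the tested members was 1.30 in 4T07 and 1.25 in 4T1 tumors, or 1.19 and 1.14 with genes at 0 in one group set to their bound, beside 0.16 and 0.09 over all genes. The comparisons share the 67NR tumors. In 4T1 against 4T07 tumors 8 members were called, 5 higher and 3 lower, or 19.0% where 8.61% of all genes were called. Of the members called against 67NR, 14 were called in both comparisons, 70.0% of each list. The matching share over all genes was not computed and the 67NR tumors are shared, so the 70.0% is not read as a trait of collagen genes. The 16 members with no call in any tumor comparison included Col4a1, Col4a2, Col5a3, Col13a1 and Col16a1.

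The counts of calls against 67NR tumors were 18 to 22 in 4T07 and 18 to 21 in 4T1 tumors when 1 of the tumors compared was left out. Fewer cells of a type and less RNA per cell cannot be told apart in these bulk libraries. In the tumors, 6 fibroblast markers summed to 126 to 177 CPM in 67NR, 384 to 432 CPM in 4T07 and 378 to 491 CPM in 4T1, with 4 of the 6 called higher in each against 67NR. The 6 endothelial markers summed to 163 to 212, 167 to 306 and 166 to 198 CPM with 0 of 6 called, and the 6 epithelial markers to 18.3 to 33.9, 165 to 232 and 1101 to 1232 CPM. Of the epithelial markers, 5 of 6 were called higher in 4T07 and 6 of 6 in 4T1 against 67NR, and 5 of 6 in 4T1 against 4T07. Of 6 pericyte and smooth muscle markers, 1 was called higher and 1 lower in 4T07 and 2 higher in 4T1 against 67NR, and 3 higher in 4T1 against 4T07. Of 4 bone markers tested, 3 were called higher in 4T07, and 2 higher and 1 lower in 4T1 against 67NR. The lung epithelium genes, which a mammary tumor should lack, summed to 54.8 to 382, 14.1 to 101 and 4.75 to 12.1 CPM in 67NR, 4T07 and 4T1 tumors, with 4 of 5 called lower in 4T07 and 5 of 5 in 4T1 against 67NR. Skeletal muscle genes summed to 2.80 to 282, 6.17 to 15.8 and 20.5 to 404 CPM, with 4 of 5 called lower in 4T07 against 67NR, 0 of 5 called in 4T1 against 67NR and 3 of 5 higher in 4T1 against 4T07. B cell and red pulp genes summed to 5.32 to 12.9, 32.3 to 141 and 9.93 to 44.6 CPM, with 4 of the 4 tested called higher in 4T07 and 2 of 4 in 4T1 against 67NR. Schwann cell genes summed to 9.32 to 20.2, 44.2 to 49.5 and 41.7 to 51.0 CPM, with 3 of 4 called higher in 4T07 and 1 of 4 in 4T1 against 67NR. The part of cell makeup in the collagen results was not tested.

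Fibrillar chains were higher in 4T07 and 4T1 tumors than in 67NR tumors. Of the 10 tested, 7 were called higher in 4T07 and 7 in 4T1 against 67NR tumors, and 0 of 10 were called between 4T1 and 4T07. Col1a1, the alpha1 chain of type I collagen, read 217, 173 and 212 CPM in the 67NR tumors, 1681, 1174 and 1873 CPM in the 4T07 tumors and 1652, 2267 and 2339.8 CPM in the 4T1 tumors. All 6 tumors of the other lines were above every 67NR tumor, by a log2 fold change of 2.73 ± 0.22 (adjusted p = 2.49e-07) in 4T07 and 3.18 ± 0.22 (adjusted p = 5.18e-08) in 4T1. Col1a2, its partner chain, read 292, 429 and 466 CPM in the 67NR tumors, 2755, 1735 and 2939.9 CPM in the 4T07 tumors and 2217, 2752 and 4193 CPM in the 4T1 tumors. It was likewise higher without overlap, by 2.39 ± 0.29 (adjusted p = 1.07e-05) and 2.75 ± 0.29 (adjusted p = 3.64e-06) on the log2 scale, while 4T07 and 4T1 overlapped each other. Col3a1, the type III chain of pliable tissue, read 278, 234 and 294 CPM in the 67NR tumors, 1562, 1229 and 1635 CPM in the 4T07 tumors and 1471, 2015 and 1776 CPM in the 4T1 tumors. The 67NR tumors were again the low group, with log2 fold changes of 2.21 ± 0.19 (adjusted p = 4.61e-07) and 2.51 ± 0.19 (adjusted p = 1.33e-07).

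Type V chains, which start fibrils and set their width, did not all follow. Col5a2 read 31.2, 32.5 and 41.5 CPM in the 67NR tumors, 199.9, 132 and 184 CPM in the 4T07 tumors and 206, 222 and 261 CPM in the 4T1 tumors. Every 4T07 and 4T1 tumor lay above the 67NR tumors, with log2 fold changes of 2.04 ± 0.20 (adjusted p = 1.62e-06) and 2.51 ± 0.20 (adjusted p = 2.2e-07). Col5a1 read 94.1, 63.2 and 56.5 CPM in the 67NR tumors, 128, 101 and 132 CPM in the 4T07 tumors and 146, 180.4 and 184 CPM in the 4T1 tumors. The groups did not overlap, but the log2 fold change was 0.51 ± 0.19 (adjusted p = 0.0431) in 4T07, under the fold required, and 1.06 ± 0.19 (adjusted p = 0.00059) in 4T1, a call that fell to 0.89 without the 67NR tumor of replicate 3 and 0.96 without the 4T1 tumor of replicate 3. Col5a3 was at 44.1 ± 19.3, 63.3 ± 1.98 and 79.9 ± 11.4 CPM and was not called. Among the minor fibrillar chains, Col11a1 was at 0.281 ± 0.282, 4.40 ± 1.27 and 5.79 ± 0.935 CPM in the same order of lines, called higher in both, and Col27a1 at 3.31 ± 1.82, 15.3 ± 4.61 and 18.3 ± 1.91 CPM, also called in both. Col24a1 read 0, 0.280 and 0.282 CPM in the 67NR tumors, 1.40, 2.72 and 3.67 CPM in the 4T07 tumors and 1.28, 0.615 and 0.648 CPM in the 4T1 tumors and was called against 67NR in 4T07 alone. Col11a2 was below 1 CPM in every tumor library.

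**Figure D1:**
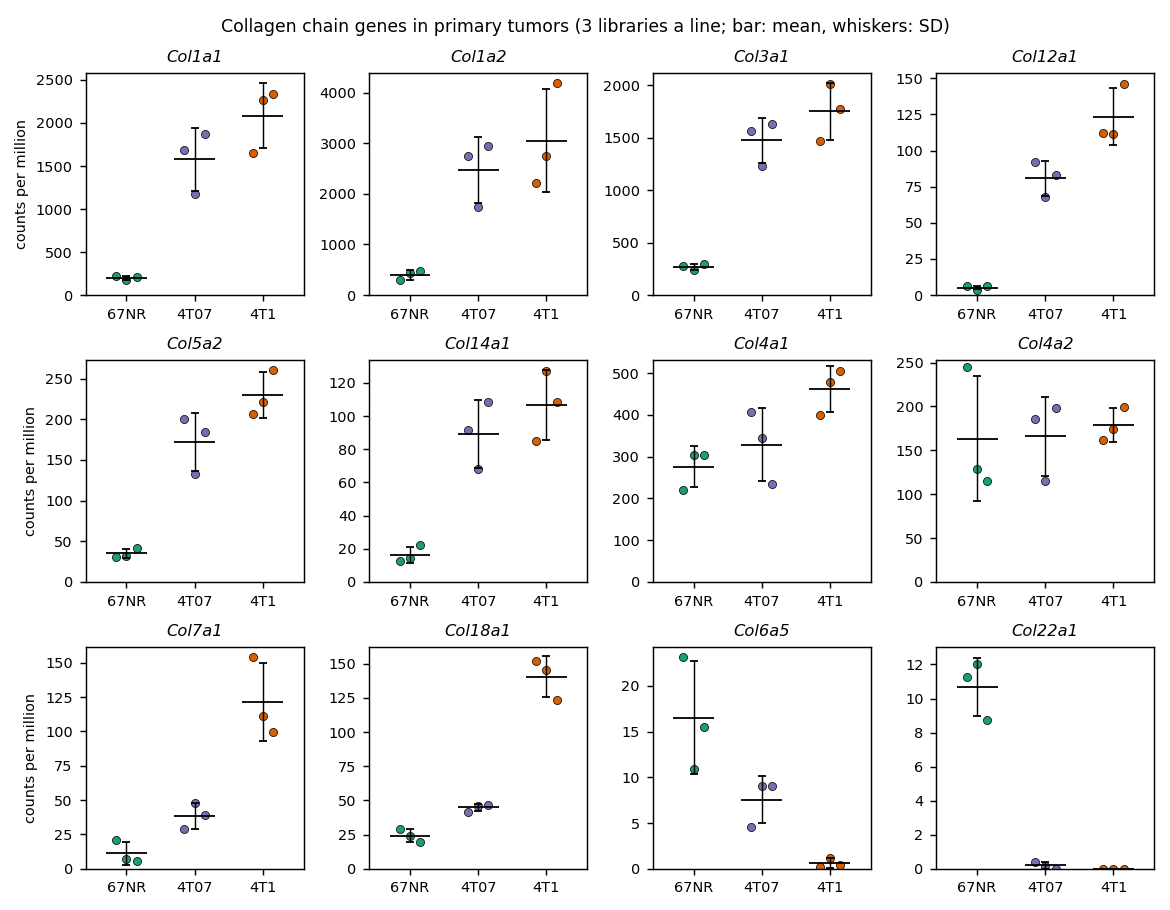
Levels of 12 chain genes in the primary tumors of the 3 lines, in CPM on linear axes that start at 0, with 1 point a library, a bar for the mean and whiskers for the SD (n = 3). Col1a1, Col1a2, Col3a1, Col12a1, Col5a2 and Col14a1 separate the 67NR tumors from both other groups, Col7a1 and Col18a1 are highest in 4T1, Col4a2 overlaps in all groups, and Col6a5 and Col22a1 are highest in 67NR.

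Fibril-associated chains moved in both directions. Col12a1, whose long arms reach out from type I fibrils in tissue under tension, read 5.91, 3.64 and 5.93 CPM in the 67NR tumors, 91.7, 67.7 and 83.0 CPM in the 4T07 tumors and 112, 112 and 146 CPM in the 4T1 tumors. It separated the 67NR tumors from all others, with log2 fold changes of 3.72 ± 0.23 (adjusted p = 3.29e-08) and 4.38 ± 0.24 (adjusted p = 3.72e-09). Col14a1, a related chain of mature fibrils, read 12.6, 14.3 and 22.0 CPM in the 67NR tumors, 91.3, 68.0 and 109 CPM in the 4T07 tumors and 85.0, 127 and 108 CPM in the 4T1 tumors. The 67NR tumors were below all others, with log2 fold changes of 2.20 ± 0.25 (adjusted p = 6.31e-06) and 2.51 ± 0.25 (adjusted p = 2.08e-06). Col22a1, known from tissue junctions such as muscle with tendon, went the other way at 11.3, 12.0 and 8.75 CPM in the 67NR tumors, 0.401, 0.181 and 0 CPM in the 4T07 tumors and 0, 0 and 0 CPM in the 4T1 tumors. The 4T1 group held no count, so its level was at least 17.7-fold lower than in 67NR tumors by the floor of 3 counts, and the 4T07 group held only 1 to 3 counts in all, so no fold is given. Col16a1, which was not called, was at 59.7 ± 9.19, 98.8 ± 17.0 and 94.6 ± 14.1 CPM. The cartilage chain Col9a1 was called higher in 4T07 tumors at 6.00 ± 4.14 CPM against 0.448 ± 0.776 CPM in 67NR and lower in 4T1 than in 4T07 at 1.39 ± 0.704 CPM, and Col9a2 was called in 4T07 at 2.21 ± 1.14 CPM. Of 7 cartilage markers, summing to 145 to 239.8, 502 to 617 and 171 to 236 CPM, Sox9 made up nearly the whole sum and Acan and Matn1 were at 0 in all tumors, and their part was not tested. Col9a3, Col19a1 and Col20a1 had group means below 2 CPM and were not called.

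Basement membrane chains stayed close among the tumors, apart from the less common chains. Col4a1, which joins Col4a2 in the common type IV collagen, read 220.4, 304 and 305 CPM in the 67NR tumors, 408, 344 and 234 CPM in the 4T07 tumors and 399.9, 478 and 506 CPM in the 4T1 tumors. The 4T07 group overlapped both others, the 4T1 tumors were above the 67NR tumors, and the log2 fold changes were -0.01 ± 0.21 (adjusted p = 0.98) and 0.53 ± 0.21 (adjusted p = 0.0636). Col4a2 read 245, 129 and 115 CPM in the 67NR tumors, 185, 115 and 198 CPM in the 4T07 tumors and 162, 175 and 199.7 CPM in the 4T1 tumors. All groups overlapped, with log2 fold changes of -0.21 ± 0.25 (adjusted p = 0.528) and -0.05 ± 0.25 (adjusted p = 0.898). Col4a5, a chain of mature basement membranes, read 3.76, 1.68 and 2.82 CPM in the 67NR tumors, 12.6, 29.8 and 20.6 CPM in the 4T07 tumors and 4.39, 6.35 and 5.61 CPM in the 4T1 tumors. It was called in 4T07 against 67NR tumors (log2 fold change 2.68 ± 0.37, adjusted p = 4.63e-05) and lower in 4T1 than in 4T07 (-1.90 ± 0.33, adjusted p = 0.00115), with the 4T07 libraries above all others. Col4a6 was listed at 0 in every 67NR tumor and at 1.79 ± 1.14 CPM in 4T07 and 0.992 ± 0.305 CPM in 4T1, at least 2.15-fold and 1.19-fold higher by the floor. It counts as called higher in both by the fitted fold, and its bound in 4T1 is under the fold required. Col4a3 and Col4a4 were at 0.835 ± 0.296 and 2.29 ± 1.53 CPM in 67NR tumors and were not called.

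Beaded filament chains divided. Col6a3, the long chain of the common type VI molecule, read 93.5, 65.7 and 76.8 CPM in the 67NR tumors, 243, 208 and 174 CPM in the 4T07 tumors and 237, 289 and 260.1 CPM in the 4T1 tumors. The 67NR tumors were below all others, with log2 fold changes of 1.16 ± 0.17 (adjusted p = 7.22e-05) and 1.54 ± 0.17 (adjusted p = 6.2e-06). Col6a1, a partner chain, read 26.9, 27.4 and 21.7 CPM in the 67NR tumors, 41.3, 44.6 and 53.6 CPM in the 4T07 tumors and 57.4, 95.5 and 87.4 CPM in the 4T1 tumors. It was higher in 4T1 tumors by 1.46 ± 0.21 (adjusted p = 8.39e-05) on the log2 scale, while the value of 0.63 ± 0.21 (adjusted p = 0.0284) in 4T07 did not reach the required fold. Col6a2 read 27.1, 26.6 and 25.4 CPM in the 67NR tumors, 44.0, 32.3 and 56.2 CPM in the 4T07 tumors and 74.2, 100.4 and 89.4 CPM in the 4T1 tumors. It was called in 4T1 against 67NR (log2 fold change 1.54 ± 0.21, adjusted p = 4.51e-05) and, by less, against 4T07 tumors (1.05 ± 0.20, adjusted p = 0.00254), and the 3 groups did not overlap. Col6a5, a chain found in few tissues, fell instead, at 23.1, 10.9 and 15.5 CPM in the 67NR tumors, 4.62, 9.07 and 9.03 CPM in the 4T07 tumors and 0.183, 1.23 and 0.432 CPM in the 4T1 tumors. The 67NR tumors were highest and the 4T1 tumors lowest with no overlap, and the log2 fold changes were -1.37 ± 0.36 (adjusted p = 0.00733) in 4T07 and -4.90 ± 0.50 (adjusted p = 2.59e-06) in 4T1. Col6a6 was at 1.11 ± 0.568, 6.59 ± 0.364 and 4.22 ± 2.72 CPM, called higher in both comparisons, and Col6a4 was at most 2.21 CPM in any tumor and was not called.

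Some members of the remaining classes, like some of the classes above, separated 4T1 from 4T07 tumors. Col7a1, the anchoring fibril chain of epithelia, read 21.0, 7.27 and 5.36 CPM in the 67NR tumors, 28.7, 47.9 and 39.2 CPM in the 4T07 tumors and 154, 111 and 99.7 CPM in the 4T1 tumors. It rose in 4T07 by 1.54 ± 0.36 (adjusted p = 0.00302) and in 4T1 by 3.25 ± 0.36 (adjusted p = 6.22e-06) on the log2 scale, and the 4T1 tumors were also above the 4T07 tumors by 1.70 ± 0.32 (adjusted p = 0.00218). Col18a1, a basement membrane multiplexin and the source of endostatin, read 29.3, 24.1 and 19.5 CPM in the 67NR tumors, 41.7, 46.3 and 46.6 CPM in the 4T07 tumors and 152, 146 and 124 CPM in the 4T1 tumors. It was called in 4T1 against 67NR (log2 fold change 2.33 ± 0.18, adjusted p = 1.4e-07) and, by less, against 4T07 (1.70 ± 0.17, adjusted p = 1.03e-05), and the 4T07 value of 0.64 ± 0.18 (adjusted p = 0.00996) was under the fold required. Col15a1, the other multiplexin, read 28.0, 28.5 and 26.3 CPM in the 67NR tumors, 28.1, 21.8 and 29.6 CPM in the 4T07 tumors and 64.9, 77.3 and 67.6 CPM in the 4T1 tumors. The 4T1 tumors were the high group, by 1.14 ± 0.18 (adjusted p = 0.00015) over 67NR and 1.45 ± 0.18 (adjusted p = 5.66e-05) over 4T07. Col8a1, a short chain of vessel walls, read 180.1, 171 and 201 CPM in the 67NR tumors, 72.2, 89.3 and 90.3 CPM in the 4T07 tumors and 233, 209.7 and 328 CPM in the 4T1 tumors. It was lowest in the 4T07 tumors, with a log2 fold change of -1.38 ± 0.19 (adjusted p = 4.56e-05) against 67NR, with 4T1 above 4T07 by 1.66 ± 0.19 (adjusted p = 3.54e-05).

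Other members of these classes were scarce in tumors. Col10a1, known from growth plate cartilage, was listed at 0 in the 67NR tumors and reached 0.604 ± 0.0504 CPM in 4T1 tumors, where it was called near the level of 3 counts, so no fold is given. Col28a1 and Col8a2 had group means of at most 2.01 CPM and were not called. Of the transmembrane chains, Col13a1, Col17a1 and Col23a1 had group means below 4 CPM and were not called, and Col25a1 was called in 4T07 at 1.79 ± 0.937 CPM against 0.183 ± 0.158 CPM.

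**Figure D2:**
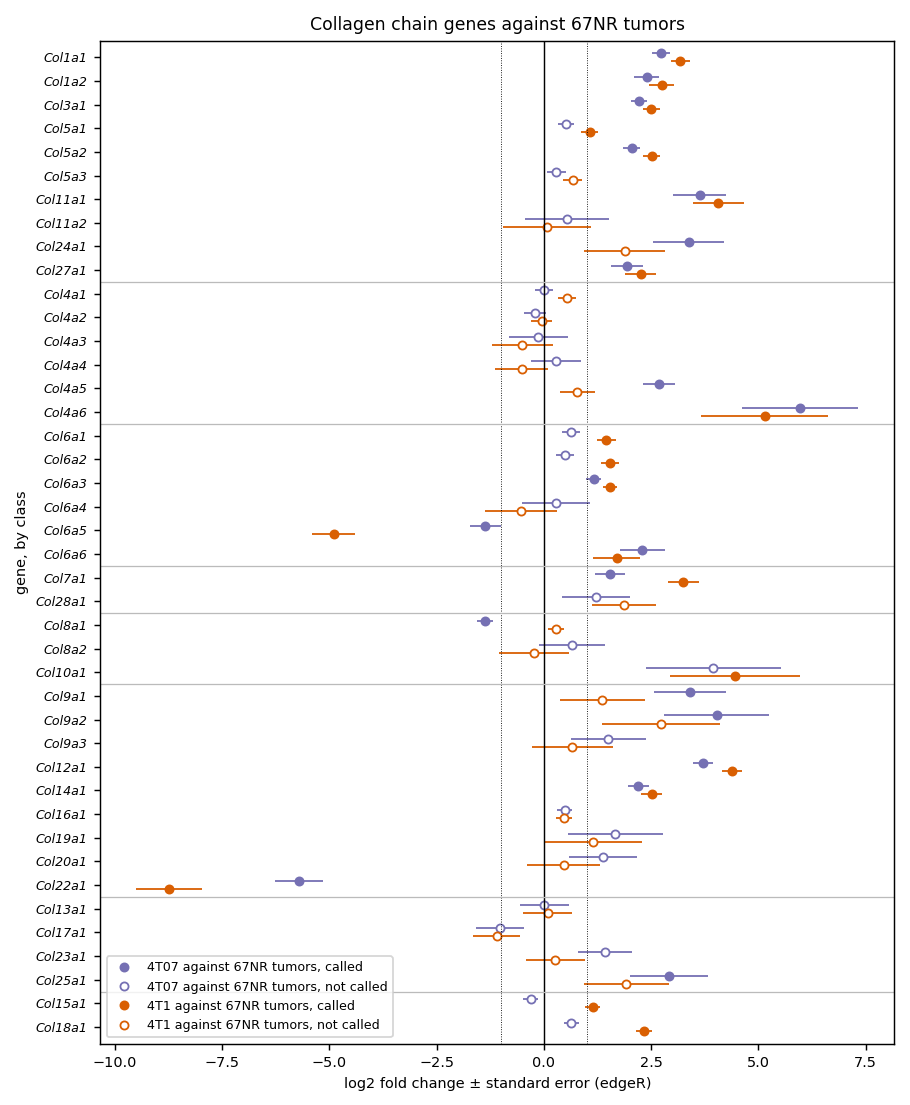
Log2 fold changes with standard errors for the 42 tested chain genes in 4T07 and 4T1 tumors against 67NR tumors (edgeR, 3 libraries a group), ordered by class, filled where called, with dotted lines at the fold required. The fibrillar block holds 7 filled points a line on the right, the basement membrane block lies near 0 apart from Col4a5 and Col4a6, and Col6a5 and Col22a1 lie far to the left. Points of genes without counts in one group (Col4a6 and Col10a1 in 67NR, Col22a1 in 4T1) are fitted values and no measure of size.

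Genes that fold, trim, crosslink and bind collagen were read from lists of 54 genes, 52 of them tested in tumors, and their mean levels stand here in the order 67NR, 4T07 and 4T1. Of these, 21 were called higher and 6 lower in 4T07, and 24 higher and 4 lower in 4T1 against 67NR tumors, with 8 higher and 3 lower in 4T1 against 4T07. The shares called over all genes in these comparisons were 28.9%, 20.7% and 8.61%, and the counts for the separate lists are to be read beside the same shares. In crosslinking (6 genes), 3 were called higher and 1 lower in 4T07 and 4 higher in 4T1. Lox, the enzyme that oxidizes lysines for crosslinks, was at 11.9 ± 3.75, 234 ± 51.5 and 151 ± 36.8 CPM, log2 fold changes of 4.05 ± 0.26 (adjusted p = 4.21e-08) and 3.46 ± 0.26 (adjusted p = 1.15e-07). Its relative Loxl2 was at 8.36 ± 3.51, 102 ± 35.0 and 111 ± 25.2 CPM and was also called higher in both. In folding and hydroxylation (18 genes), 7 were called higher and 1 lower in 4T07 and 8 higher in 4T1. The prolyl hydroxylase subunit P4ha2 was at 6.07 ± 1.26, 44.1 ± 11.4 and 53.1 ± 10.8 CPM, and the lysyl hydroxylase Plod2 at 23.5 ± 3.57, 188 ± 55.5 and 109 ± 39.8 CPM, both called higher in both lines. Serpinh1, the collagen chaperone HSP47, had no call against 67NR and a log2 fold change of 1.10 ± 0.17 (adjusted p = 0.00047) in 4T1 against 4T07.

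Among 11 fibril assembly partners, 7 were called higher in 4T07 and 8 in 4T1, and 0 lower. Decorin (Dcn), a small proteoglycan on fibrils, was at 87.4 ± 18.9, 440.5 ± 69.8 and 381 ± 85.4 CPM, and periostin (Postn), a matrix protein of remodeling tissue, at 28.0 ± 3.14, 86.2 ± 3.17 and 182 ± 15.1 CPM. Fibronectin (Fn1), on which collagen fibrils are laid down, was at 646 ± 174, 1893 ± 704 and 2718 ± 177 CPM. Of 6 propeptide processing genes tested, 1 was called higher and 2 lower in 4T07 and 2 higher and 1 lower in 4T1. Bmp1, the protease that removes the C-terminal propeptide, was at 28.5 ± 8.00, 46.9 ± 6.63 and 155 ± 20.6 CPM and was called in 4T1 alone against 67NR (log2 fold change 2.25 ± 0.20, adjusted p = 6.64e-07), and its enhancer Pcolce2 at 79.5 ± 9.84, 28.3 ± 4.22 and 72.6 ± 0.988 CPM was called lower in 4T07. Of 11 collagen receptors, 3 were called higher and 2 lower in 4T07, and 2 higher and 3 lower in 4T1. The integrin subunit Itga2 was at 2.95 ± 0.408, 10.6 ± 1.09 and 67.0 ± 6.79 CPM with a log2 fold change of 4.30 ± 0.24 (adjusted p = 4.56e-09) in 4T1, whereas the receptor kinase Ddr2 was at 599.6 ± 127, 260.3 ± 18.1 and 176 ± 12.4 CPM and was called lower in both.

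Scaffolds were rich in fibrillar collagen RNA in every group, and few members differed with the tumor borne elsewhere in the mouse. Of the 42 members tested (Col11a2 and Col22a1 did not pass), 0 were called in 67NR against control scaffolds, where 0% of all genes were called, with 7 members and 626 genes at an unadjusted p below 0.05 in edgeR. In 4T1 against control scaffolds 0 members were called, where 0.0226% of all genes were, with 9 members and 2682 genes at an unadjusted p below 0.05. In 4T07 against control scaffolds 5 members were called, 4 higher and 1 lower, where 7.44% of all genes were called, and library totals in place of TMM factors gave 4 higher and 0 lower. In 4T1 against 4T07 scaffolds 1 member, Col6a5, was called, where 1% of all genes were called. The first 3 of these comparisons share the control scaffolds. DESeq2 gave 0 calls in 67NR, 0 in 4T1, 5 in 4T07 and 1 in 4T1 against 4T07. Of the 54 genes that fold, trim, crosslink and bind collagen, 2 were called higher and 3 lower in 4T07 and 0 in the other scaffold comparisons.

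Col1a1 read 2049, 2553 and 2854 CPM in control scaffolds, 3017, 3297 and 3123 CPM in 67NR scaffolds, 2471, 3395 and 3358 CPM in 4T07 scaffolds and 3115, 3827 and 2780.2 CPM in 4T1 scaffolds. The 67NR scaffolds were all above the control scaffolds and the other groups overlapped them, and the log2 fold changes against control were 0.27 ± 0.19 (adjusted p = 0.998) in 67NR, 0.18 ± 0.19 (adjusted p = 0.631) in 4T07 and 0.27 ± 0.19 (adjusted p = 0.606) in 4T1. Col3a1 read 2218, 2929 and 3215 CPM in control scaffolds, 2909.9, 3718 and 3276 CPM in 67NR scaffolds, 1829, 2405 and 2289 CPM in 4T07 scaffolds and 2912, 5398 and 2835 CPM in 4T1 scaffolds. One 4T1 library, replicate 2, was well above all other scaffolds, and 4T07 scaffolds reached a log2 fold change of -0.49 ± 0.23 (adjusted p = 0.2). Col27a1, a fibrillar chain of cartilage and developing tissue, read 16.2, 33.6 and 38.3 CPM in control scaffolds, 29.6, 31.1 and 34.1 CPM in 67NR scaffolds, 76.7, 82.4 and 69.9 CPM in 4T07 scaffolds and 36.4, 47.9 and 32.5 CPM in 4T1 scaffolds. The 4T07 scaffolds were above all 9 others, with a log2 fold change of 1.25 ± 0.22 (adjusted p = 0.00212) against control, which was 0.97 and below the fold required without the control scaffold of replicate 1. Col14a1 read 154, 141 and 171 CPM in control scaffolds, 192, 208 and 184 CPM in 67NR scaffolds, 75.1, 77.8 and 93.5 CPM in 4T07 scaffolds and 139, 133 and 85.8 CPM in 4T1 scaffolds. The 4T07 scaffolds were below all control scaffolds, with a log2 fold change of -1.06 ± 0.17 (adjusted p = 0.00147) that was -0.98 without the 4T07 scaffold of replicate 1.

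Col6a5 read 1.47, 3.64 and 4.56 CPM in control scaffolds, 2.59, 6.74 and 2.78 CPM in 67NR scaffolds, 7.71, 10.8 and 17.6 CPM in 4T07 scaffolds and 3.76, 3.73 and 4.13 CPM in 4T1 scaffolds. The 4T07 scaffolds were above every other scaffold library, by 1.73 ± 0.41 (adjusted p = 0.0115) on the log2 scale against control and, as 4T1 against 4T07, -1.60 ± 0.40 (adjusted p = 0.0782). The call against 4T1 was lost in 5 of the 6 fits that left out 1 scaffold. Col7a1 read 4.20, 5.38 and 6.93 CPM in control scaffolds, 7.21, 7.54 and 8.84 CPM in 67NR scaffolds, 11.5, 10.0 and 16.0 CPM in 4T07 scaffolds and 10.1, 8.02 and 9.52 CPM in 4T1 scaffolds. The 4T07 scaffolds were above the control scaffolds and overlapped those of 4T1. Their log2 fold change was 1.04 ± 0.24 (adjusted p = 0.0112) against control, and 0.91 without the control scaffold of replicate 1 and 0.82 without the 4T07 scaffold of replicate 3. Col20a1, the fifth call, was at 3.12 ± 0.780 CPM in 4T07 and 1.03 ± 0.764 CPM in control scaffolds. The whole count of calls in 4T07 scaffolds was 2 without the control scaffold of replicate 1 and 3 without the 4T07 scaffold of replicate 3. Keratinocyte markers summed to 8.18 to 18.9 CPM in control and 11.2 to 92.8 CPM in 4T07 scaffolds, skeletal muscle markers to 3.36 to 308 and 181 to 468 CPM, and fibroblast markers to 509 to 544 and 478 to 516 CPM, with 1 of 6 keratinocyte markers called higher and 0 of 5 skeletal muscle markers called. Adipocyte markers summed to 90.1 to 131 CPM in control, 43.6 to 55.3 CPM in 4T07 and 152 to 235 CPM in 4T1 scaffolds, with 3 of 5 called lower in 4T07 against control and 4 of 5 higher in 4T1 against 4T07. The part of these in the collagen calls was not tested.

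Other chains of the common fibers and filaments were not called in any scaffold comparison. Col1a2 read 2799, 3945 and 4294 CPM in control scaffolds, 4564, 4979 and 4536 CPM in 67NR scaffolds, 3593, 5558 and 4561 CPM in 4T07 scaffolds and 4284, 6584 and 3933 CPM in 4T1 scaffolds. Col5a1 read 127, 166 and 176 CPM in control scaffolds, 188, 234 and 218 CPM in 67NR scaffolds, 184, 196 and 217 CPM in 4T07 scaffolds and 197, 319 and 172 CPM in 4T1 scaffolds. Col6a3 read 312, 564 and 652 CPM in control scaffolds, 546, 705 and 604 CPM in 67NR scaffolds, 683, 1003 and 653 CPM in 4T07 scaffolds and 576, 1025 and 644 CPM in 4T1 scaffolds. For these 3 genes the control scaffolds overlapped each group of scaffolds from tumor-bearing mice or lay just below it. Col6a1 read 63.3, 54.8 and 68.3 CPM in control scaffolds, 60.0, 82.2 and 85.3 CPM in 67NR scaffolds, 80.1, 96.5 and 112 CPM in 4T07 scaffolds and 78.2, 139 and 60.5 CPM in 4T1 scaffolds. Col4a1 read 215, 464 and 440.3 CPM in control scaffolds, 432, 428 and 499 CPM in 67NR scaffolds, 482, 588 and 509.8 CPM in 4T07 scaffolds and 479, 991 and 587 CPM in 4T1 scaffolds. Col4a2 read 107, 137 and 142 CPM in control scaffolds, 176, 129 and 149.7 CPM in 67NR scaffolds, 213, 242 and 255 CPM in 4T07 scaffolds and 166, 253 and 154 CPM in 4T1 scaffolds. The 4T07 scaffolds were above the control scaffolds in all 3 of these, and the log2 fold changes of 0.49 ± 0.23 (adjusted p = 0.199) for Col6a1, 0.37 ± 0.25 (adjusted p = 0.394) for Col4a1 and 0.74 ± 0.18 (adjusted p = 0.0141) for Col4a2 did not reach the fold required.

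Set against the scaffolds of mice with the same tumor, tumors held less RNA of most chains that were called. Of the 44 members tested in the joint fit, 27 were called in 67NR tumors against 67NR scaffolds, 3 higher and 24 lower, or 61.4% where 32.4% of all genes were called. In 4T07, 17 were called, 3 higher and 14 lower, or 38.6% where 18.8% of all genes were. In 4T1, 12 were called, 1 higher and 11 lower, or 27.3%, close to the 23.7% of all genes. Over all genes in 4T1, 11.6% were called higher and 12.1% lower. Median log2 fold changes over the members were -1.62, -0.78 and -0.55, beside -0.24, 0.01 and -0.02 over all genes. Tissue origin, site and time since implantation differ between a tumor and a scaffold and cannot be told apart here.

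Col1a1 was lower in tumors than in scaffolds, with log2 fold changes of -3.97 ± 0.23 (adjusted p = 6.8e-12) in 67NR and -1.17 ± 0.21 (adjusted p = 0.000132) in 4T07, the second at -0.96 with library totals and -0.99 without the 4T07 tumor of replicate 2, and at -0.77 ± 0.21 (adjusted p = 0.00498) in 4T1. Col12a1 was at -4.97 ± 0.23 (adjusted p = 2.86e-13) in 67NR, and its levels in 4T1 tumors (123 ± 19.9 CPM) and 4T1 scaffolds (146 ± 26.2 CPM) were close, at -0.38 ± 0.18 (adjusted p = 0.106). Col11a1, a minor fibrillar chain, was lower in tumors of all 3 lines, at 0, 0.280 and 0.565 CPM in 67NR, 5.82, 3.99 and 3.39 CPM in 4T07 and 6.40, 4.71 and 6.26 CPM in 4T1 tumors against 41.9, 50.5 and 33.9, 37.7, 45.0 and 52.0 and 50.3, 49.4 and 38.1 CPM in their scaffolds. No tumor reached the scaffolds, and the log2 fold changes were -7.13 ± 0.41 (adjusted p = 5.46e-12), -3.53 ± 0.26 (adjusted p = 4.63e-10) and -3.12 ± 0.25 (adjusted p = 1.03e-09). Col3a1 was lower in 67NR and 4T1 tumors, with log2 fold changes of -3.61 ± 0.24 (adjusted p = 5.78e-11) and -1.21 ± 0.22 (adjusted p = 0.000144), the second at -0.88 without the 4T1 scaffold of replicate 2. Col6a6 read 33.6, 34.7 and 29.6 CPM in 67NR, 22.9, 27.3 and 31.2 CPM in 4T07 and 26.3, 22.9 and 16.3 CPM in 4T1 scaffolds, above the tumors of the same line, and with Col6a3 it was called lower in tumors of all 3 lines. Col27a1 was called lower in all 3 as well, at 3.49, 5.04 and 1.41, 17.9, 9.98 and 18.1 and 17.0, 17.4 and 20.5 CPM in 67NR, 4T07 and 4T1 tumors. Col14a1 was called lower in 67NR tumors alone, with a log2 fold change of -3.57 ± 0.24 (adjusted p = 5.75e-11), and Col22a1 was higher there, with the 67NR scaffolds at 0.554, 0 and 0 CPM. Col8a2 was at 2.01, 2.18 and 1.41 CPM in 4T07 tumors and 7.46, 10.8 and 8.23 CPM in 4T07 scaffolds. Col15a1 and Col6a2, called lower in 4T07 tumors, read 74.2, 94.9 and 82.0 and 153, 161 and 157 CPM in 4T07 scaffolds, above the tumor values. Col7a1 was higher in 4T07 and 4T1 tumors than in their scaffolds, by 1.42 ± 0.31 (adjusted p = 0.00096) and 3.57 ± 0.32 (adjusted p = 6.91e-09), and Col4a5 was higher in 4T07 tumors by 2.94 ± 0.40 (adjusted p = 4.59e-06).

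The difference between lines was tested between the tissues as well. The log2 fold change of 4T07 against 67NR differed between tumors and scaffolds in 16 members, 13 with a larger value in tumors and 3 with a smaller one, or 36.4% where 17.5% of all genes were called. For 4T1 against 67NR it differed in 20 members, 18 larger and 2 smaller, or 45.5% where 12.5% were called. Col12a1 differed by 4.14 ± 0.29 (adjusted p = 1.21e-09) in 4T07 and 4.59 ± 0.29 (adjusted p = 2.05e-10) in 4T1, Col1a1 by 2.80 ± 0.30 (adjusted p = 4.42e-07) and 3.19 ± 0.30 (adjusted p = 8.58e-08), and Col14a1 by 3.48 ± 0.32 (adjusted p = 6.25e-08) and 3.27 ± 0.31 (adjusted p = 1.2e-07). These 3 genes thus separated the lines more in tumors than in scaffolds. Both differences rest on the same 67NR tumors and scaffolds.

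**Figure D3:**
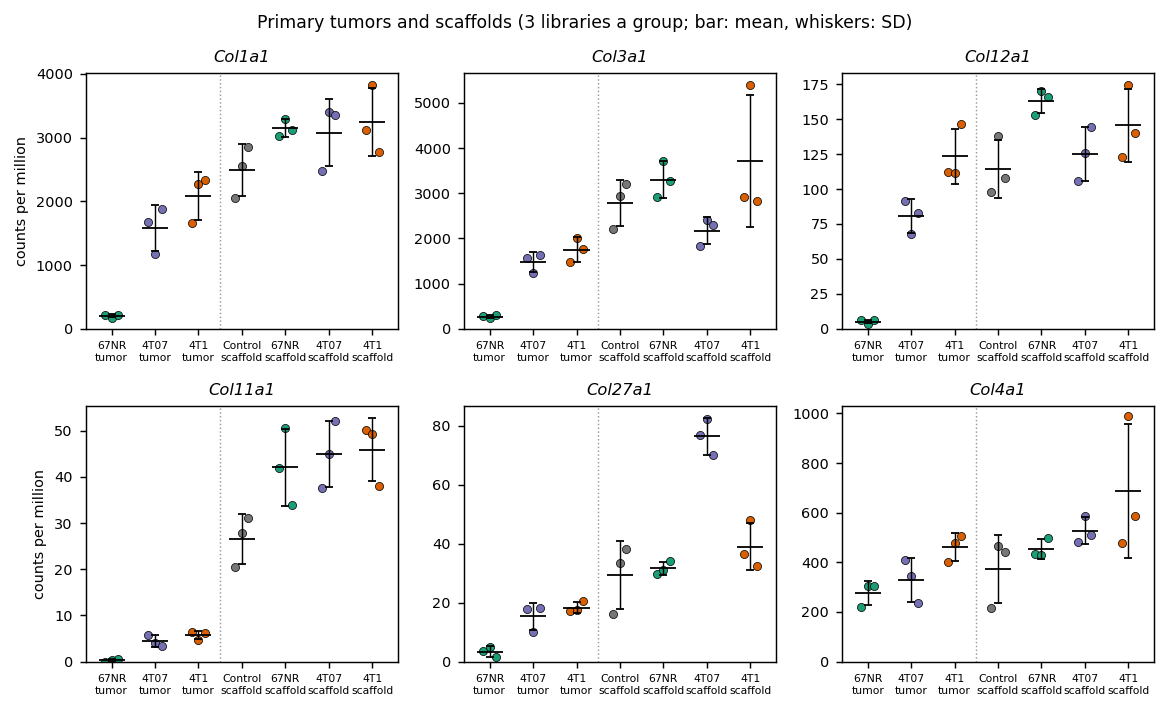
Levels of 6 chain genes in the 3 tumor groups and 4 scaffold groups, in CPM on linear axes that start at 0, with 1 point a library, a bar for the mean and whiskers for the SD (n = 3). For Col1a1, Col3a1, Col12a1 and Col11a1 the 67NR tumors lie far below all scaffolds while the 67NR scaffolds lie with the other scaffolds, Col27a1 is highest in 4T07 scaffolds, and Col4a1 overlaps between tissues.

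In lungs several chains were lower in mice with 4T07 tumors, together with the markers of lung tissue itself. Of 40 members tested (Col2a1, Col9a1, Col9a2 and Col28a1 did not pass), 16 were called in 4T07 against control lungs, 4 higher and 12 lower, or 40.0% where 29% of all genes were called, with a median log2 fold change of -0.32 over the members tested and -0.01 over all genes. In 67NR against control lungs 1 was called, where 4.25% were, and in 4T1 against control lungs 0 were called, where 4.61% were, with 9 members and 4701 genes at an unadjusted p below 0.05 in edgeR and 0 members called by DESeq2. In 4T1 against 4T07 lungs 13 were called, 9 higher and 4 lower, or 32.5% where 23.5% were called. Of the 54 genes that fold, trim, crosslink and bind collagen, 5 were called higher and 20 lower in 4T07, 1 higher and 1 lower in 4T1 and 0 in 67NR against control lungs. Lung epithelium markers summed to 5693 to 14287 CPM in 4T07 lungs against 28467 to 35452 CPM in 4T1 and 34911 to 37028 CPM in control lungs, and endothelial markers to 747 to 1218, 2486 to 2703 and 2632 to 2745 CPM. B cell and red pulp genes were at 283 to 376 CPM in 4T07 lungs and 327 to 379.7 CPM in 4T07 spleens. Leukocyte markers summed to 433 to 505 CPM in control, 10660.3 to 12942 CPM in 4T07 and 6484 to 14312 CPM in 4T1 lungs. Only 2 of 7 were called higher in 4T07 and 1 of 7 in 4T1 against control lungs. The median log2 fold changes of the 7 were 0.94 and 0.14, so these sums do not stand for the whole list. Adipocyte markers summed to 28.8 to 77.7, 5.99 to 14.0 and 13.9 to 20.0 CPM, with 4 of the 4 tested called lower in 4T07 and in 4T1 against control lungs. Their part in the collagen values was not tested.

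Col13a1, a transmembrane chain of cell contacts, read 80.7, 67.6 and 76.9 CPM in control lungs, 65.5, 79.3 and 79.3 CPM in 67NR lungs, 15.5, 11.1 and 19.3 CPM in 4T07 lungs and 60.5, 54.8 and 64.6 CPM in 4T1 lungs. The 4T07 lungs were below all others, with a log2 fold change of -2.23 ± 0.18 (adjusted p = 3.85e-09) against control and 1.92 ± 0.18 (adjusted p = 4.73e-08) in 4T1 against 4T07. Col23a1, another transmembrane chain, read 34.9, 26.0 and 31.2 CPM in control lungs, 34.1, 33.1 and 36.9 CPM in 67NR lungs, 8.68, 10.9 and 14.1 CPM in 4T07 lungs and 25.6, 25.8 and 30.7 CPM in 4T1 lungs. It was low in the 4T07 lungs alone, with a log2 fold change of -1.39 ± 0.19 (adjusted p = 4.31e-06). Col4a1 read 588, 531 and 579.6 CPM in control lungs, 583, 616 and 619 CPM in 67NR lungs, 235, 227 and 308 CPM in 4T07 lungs and 567, 557 and 634 CPM in 4T1 lungs. The 4T07 lungs did not overlap any other group, with a log2 fold change of -1.08 ± 0.14 (adjusted p = 3.57e-06), while its partner Col4a2 was at 163 ± 15.3 CPM in control and 151 ± 3.85 CPM in 4T07 lungs, -0.05 ± 0.14 (adjusted p = 0.818).

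Col4a4, a chain of the alveolar basement membrane, read 214, 226 and 275 CPM in control lungs, 408, 306 and 330.3 CPM in 67NR lungs, 113, 76.4 and 132 CPM in 4T07 lungs and 222, 253 and 267 CPM in 4T1 lungs. The log2 fold change in 4T07 was -1.09 ± 0.17 (adjusted p = 2.72e-05), and -0.99 without the control lung of replicate 3 and -0.90 without the 4T07 lung of replicate 2. Col12a1 read 16.0, 19.1 and 16.7 CPM in control lungs, 13.4, 16.7 and 15.3 CPM in 67NR lungs, 5.72, 2.68 and 6.29 CPM in 4T07 lungs and 12.7, 9.60 and 13.3 CPM in 4T1 lungs. The 4T07 lungs were below all others, with a log2 fold change of -1.76 ± 0.25 (adjusted p = 8.45e-06). Col6a3 read 81.8, 101 and 93.2 CPM in control lungs, 97.9, 141 and 146 CPM in 67NR lungs, 32.2, 25.8 and 42.7 CPM in 4T07 lungs and 78.1, 69.2 and 84.4 CPM in 4T1 lungs. The 4T07 lungs were again lowest, with a log2 fold change of -1.39 ± 0.19 (adjusted p = 3.71e-06). Col6a2 read 38.4, 39.3 and 46.0 CPM in control and 14.2, 14.9 and 16.7 CPM in 4T07 lungs, a log2 fold change of -1.37 ± 0.25 (adjusted p = 0.00015). Col3a1 was at 308, 278 and 332 CPM in control lungs, 259, 300.5 and 318 CPM in 67NR lungs, 151, 123 and 142 CPM in 4T07 lungs and 210.2, 165 and 219 CPM in 4T1 lungs. The 4T07 lungs were lowest, with a log2 fold change of -1.08 ± 0.15 (adjusted p = 5.27e-06), whereas Col1a1, at 164 ± 32.3 CPM in control and 126 ± 25.7 CPM in 4T07 lungs, was not called (-0.32 ± 0.16, adjusted p = 0.116).

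The other members called lower in 4T07 lungs were Col4a5, Col5a2, Col6a6 and Col17a1, at 7.52 ± 2.70, 23.1 ± 7.13, 0.769 ± 0.479 and 0.776 ± 0.124 CPM against 16.3 ± 5.27, 48.3 ± 4.34, 2.38 ± 1.22 and 2.79 ± 0.548 CPM in control lungs. A type V chain went the other way. Col5a1 read 18.1, 20.4 and 17.8 CPM in control lungs, 25.3, 29.6 and 25.9 CPM in 67NR lungs, 44.9, 49.8 and 35.8 CPM in 4T07 lungs and 19.6, 18.9 and 20.8 CPM in 4T1 lungs. The 4T07 lungs were above all others, by 1.28 ± 0.16 (adjusted p = 1.6e-06) against control and, as 4T1 against 4T07, -1.18 ± 0.16 (adjusted p = 4.66e-06). The other members called higher in 4T07 lungs were Col6a4 at 4.73 ± 1.25 CPM, Col7a1 at 5.51 ± 1.36 CPM and Col26a1, which was listed at 0 in control lungs and at 0.492 ± 0.110 CPM in 4T07. The floor of 3 counts stood at 0.635 CPM on average in 4T07 lungs. Col26a1 was under it, so no fold is given, and Col6a6 and Col17a1 were not far above it in 4T07 lungs. In 67NR lungs the single call was Col27a1, at 9.59, 11.7 and 16.3 CPM in control and 24.9, 29.4 and 31.1 CPM in 67NR lungs. The groups did not overlap, and the log2 fold change was 1.08 ± 0.19 (adjusted p = 0.0021), or 0.94 without the control lung of replicate 1, when 0 members were called. In the same comparison 3 of 5 skeletal muscle markers were called higher (6.31 to 18.8 CPM summed in control and 5.94 to 139 CPM in 67NR lungs), 2 of 5 heart markers (72.0 to 76.7 and 64.9 to 345 CPM) and 2 of the 5 keratinocyte markers tested (7.57 to 11.3 and 10.7 to 63.9 CPM), and their part in the Col27a1 call was not tested. The count of members called was 2 without the control lung of replicate 2, 3 without that of replicate 3 and 3 without the 67NR lung of replicate 1, and in 4T1 against control lungs 1 without the control or the 4T1 lung of replicate 3. Without the 4T07 lung of replicate 2, 7 members were called in 4T1 against 4T07 lungs.

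The log2 fold change of 4T1 against 4T07 was also compared between lungs and scaffolds. It differed in 10 members, 7 with a larger value in lungs and 3 with a smaller one, or 22.7% where 12% of all genes were called. Col23a1 differed by 1.86 ± 0.39 (adjusted p = 0.00125) and Col13a1 by 1.88 ± 0.42 (adjusted p = 0.0023), the latter 1.33 (adjusted p = 0.0640) without the 4T07 scaffold of replicate 1. Col14a1 differed by -1.38 ± 0.23 (adjusted p = 0.00017) and Col5a1 by -1.33 ± 0.24 (adjusted p = 0.000377), the latter -0.97 without the 4T1 scaffold of replicate 2. The marker values of the 4T07 lungs above stand beside each of these.

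**Figure D4:**
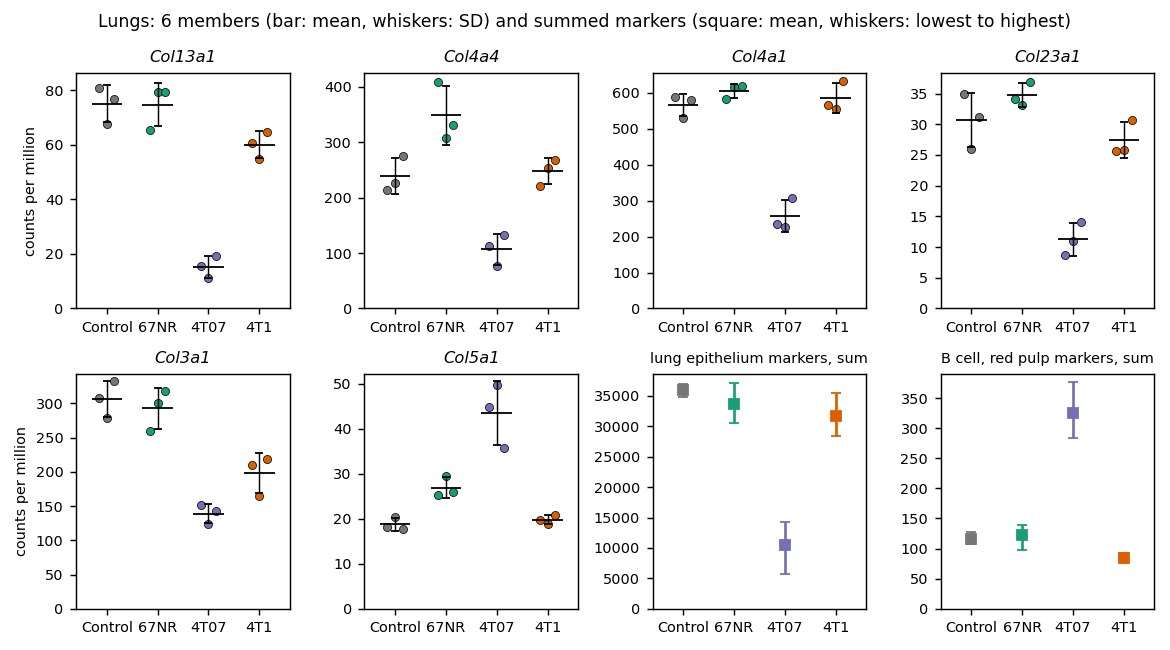
Levels of 6 chain genes in the lungs of the 4 groups (points for libraries, bars for means, whiskers for SD, n = 3) and, in the last panels, the summed lung epithelium markers and B cell and red pulp markers (square for the mean, whiskers from lowest to highest), in CPM on linear axes that start at 0. In the 4T07 lungs Col13a1, Col4a4, Col4a1, Col23a1 and Col3a1 are low, Col5a1 is high, the lung epithelium sum is 5693 to 14287 CPM and the B cell and red pulp sum is above those of the other 3 groups.

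Spleens held little collagen RNA, 741 to 804 CPM summed over members in control and 588 to 678 CPM in 4T1 spleens. Of 41 members tested (Col2a1, Col24a1 and Col28a1 did not pass), 0 were called in 67NR against control spleens, where 2.26% of all genes were called, with 4 members and 3712 genes at an unadjusted p below 0.05 in edgeR and 0 members called by DESeq2. In 4T07, 10 were called, 5 higher and 5 lower, or 24.4% where 18.6% of all genes were, and 13, 4 higher and 9 lower, with library totals in place of TMM factors, while DESeq2 called 6, 3 higher and 3 lower. In 4T1, 9 were called, 1 higher and 8 lower, or 22.0%, close to the 19.9% of all genes, and 2 in 4T1 against 4T07, both lower, where 2.33% were. B cell and red pulp markers summed to 1073 to 1445 CPM in control, 327 to 379.7 CPM in 4T07 and 270.1 to 467 CPM in 4T1 spleens, and fibroblast markers to 213 to 245, 125 to 143 and 118 to 150.3 CPM. Of the 6 fibroblast markers, 1 was called higher and 2 lower in 4T07, and 1 higher and 0 lower in 4T1 against control. Of 6 endothelial markers, 1 was called higher and 0 lower in 4T07, and 1 higher and 4 lower in 4T1 against control. Markers of other tissues moved as well. Lung epithelium genes summed to 3.92 to 11.6 CPM in control, 39.8 to 85.2 CPM in 4T07 and 8.33 to 21.0 CPM in 4T1 spleens, with 4 of 5 called higher in 4T07 against control and 3 of 5 lower in 4T1 against 4T07. Skeletal muscle genes summed to 8.62 to 12.6, 32.1 to 42.0 and 10.7 to 12.5 CPM, with 5 of 5 called higher in 4T07 against control and 3 of 5 lower in 4T1 against 4T07. Mesothelial genes summed to 45.4 to 55.8, 8.02 to 13.4 and 13.7 to 17.6 CPM, with 3 of 4 called lower in 4T07 and in 4T1 against control. The part of these markers in the collagen calls was not tested.

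Col5a1 read 20.4, 18.9 and 28.0 CPM in control spleens, 45.2, 36.8 and 30.9 CPM in 67NR spleens, 58.9, 41.1 and 51.8 CPM in 4T07 spleens and 54.2, 60.7 and 47.5 CPM in 4T1 spleens. It was higher in 4T07 by 1.34 ± 0.20 (adjusted p = 0.00014) and in 4T1 by 1.52 ± 0.20 (adjusted p = 3.63e-05) on the log2 scale, with no overlap with control spleens. Col8a1 read 2.14, 1.15 and 1.51 CPM in control spleens, 2.72, 1.53 and 2.02 CPM in 67NR spleens, 21.6, 9.84 and 5.44 CPM in 4T07 spleens and 0.959, 1.47 and 2.06 CPM in 4T1 spleens. It was high in 4T07 spleens alone, by 3.07 ± 0.45 (adjusted p = 0.000119) against control and, as 4T1 against 4T07, -2.92 ± 0.47 (adjusted p = 0.00326), with a wide spread among the 4T07 libraries. Col6a4, a spleen-rich chain here, read 16.3, 18.0 and 17.7 CPM in control spleens, 20.1, 20.4 and 19.1 CPM in 67NR spleens, 3.29, 2.59 and 6.30 CPM in 4T07 spleens and 4.07, 6.37 and 3.88 CPM in 4T1 spleens. The 4T07 and 4T1 spleens were below every control and 67NR spleen, with log2 fold changes of -1.98 ± 0.28 (adjusted p = 8.75e-05) and -1.60 ± 0.28 (adjusted p = 0.000373). Col8a2 read 13.8, 14.5 and 10.3 CPM in control spleens, 6.49, 12.8 and 14.1 CPM in 67NR spleens, 5.97, 3.45 and 5.44 CPM in 4T07 spleens and 3.36, 3.67 and 2.74 CPM in 4T1 spleens. The 4T07 and 4T1 spleens were again below all others, with log2 fold changes of -1.23 ± 0.30 (adjusted p = 0.00632) and -1.73 ± 0.32 (adjusted p = 0.000711). Col14a1, at 164 ± 6.14 CPM in control, 87.4 ± 6.30 CPM in 4T07 and 79.6 ± 15.1 CPM in 4T1 spleens, did not reach the fold required. The other members called in 4T07 spleens were Col5a3, Col15a1 and Col22a1 (higher) and Col9a1, Col20a1 and Col25a1 (lower), and those called lower in 4T1 spleens were Col4a4, Col6a6, Col9a1, Col19a1, Col23a1 and Col25a1. Over all 45 libraries together, Col9a1, Col19a1, Col20a1, Col22a1 and Col25a1 held 185, 227, 368, 157 and 255 counts. Their spleen calls thus rest on few counts, and no fold is given. The count of calls was 6 in 4T07 without the control spleen of replicate 3 or the 4T07 spleens of replicate 1 or 2, 5 in 4T1 without the 4T1 spleen of replicate 1, and 1 in 4T1 against 4T07 without the 4T07 spleen of replicate 2 or the 4T1 spleens of replicate 1 or 2.

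Without any tumor, each tissue had its own set of chains. In control scaffolds against control lungs 30 of 41 tested members were called, 24 higher and 6 lower, or 73.2% where 30% of all genes were called. Against control spleens 25 were called, 23 higher and 2 lower, where 31.5% were, and in control lungs against control spleens 27 were called, 20 higher and 7 lower, where 36.8% were. Scaffolds held more of 9 of the 10 fibrillar chains tested than lungs and than spleens. Col1a1 was at 2485 ± 407 CPM in scaffolds, 164 ± 32.3 CPM in lungs and 63.7 ± 5.34 CPM in spleens, a log2 fold change of 4.13 ± 0.21 (adjusted p = 7.41e-10) over lungs. Col11a1 was at 20.6, 27.9 and 31.2 CPM in scaffolds, where lungs held 0, 0 and 0.324 CPM, at or under 3 counts a library. Col15a1, at 41.5, 67.3 and 89.6 CPM against 3.49, 3.25 and 3.24 CPM, and Col8a1, at 96.3, 101 and 117 CPM against 8.02, 10.3 and 12.8 CPM, were higher in scaffolds than in lungs. Col5a3 read 70.1, 124 and 132 CPM in scaffolds, 4.18, 3.43 and 2.27 CPM in lungs and 1.94, 1.15 and 1.72 CPM in spleens, again with the scaffolds above both.

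Lungs held the chains of alveolar basement membrane and cell surface. Col4a4 was at 214, 226 and 275 CPM in control lungs and 5.66, 3.17 and 5.04 CPM in control scaffolds, and as scaffold against lung the log2 fold change was -5.48 ± 0.23 (adjusted p = 1.45e-10). Col13a1 read 2.10, 1.58 and 1.42 CPM in scaffolds and 2.72, 2.31 and 1.94 CPM in spleens, far under the control lungs. Col4a3 at 15.3, 13.7 and 22.0 CPM, Col4a5 at 12.0, 14.6 and 22.2 CPM and Col23a1 at 30.7 ± 4.47 CPM were called higher in lungs than in either other tissue. Spleens were set apart by Col6a4, at 17.3 ± 0.895 CPM against 1.98 ± 0.746 CPM in lungs and 0.332 ± 0.408 CPM in scaffolds, and held more Col14a1 and Col8a2 than lungs, at 164 ± 6.14 and 12.9 ± 2.23 CPM against 58.0 ± 14.3 and 4.79 ± 0.750 CPM. Col2a1, the main chain of cartilage, stayed at or below 0.615 CPM in every library.

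**Figure D5:**
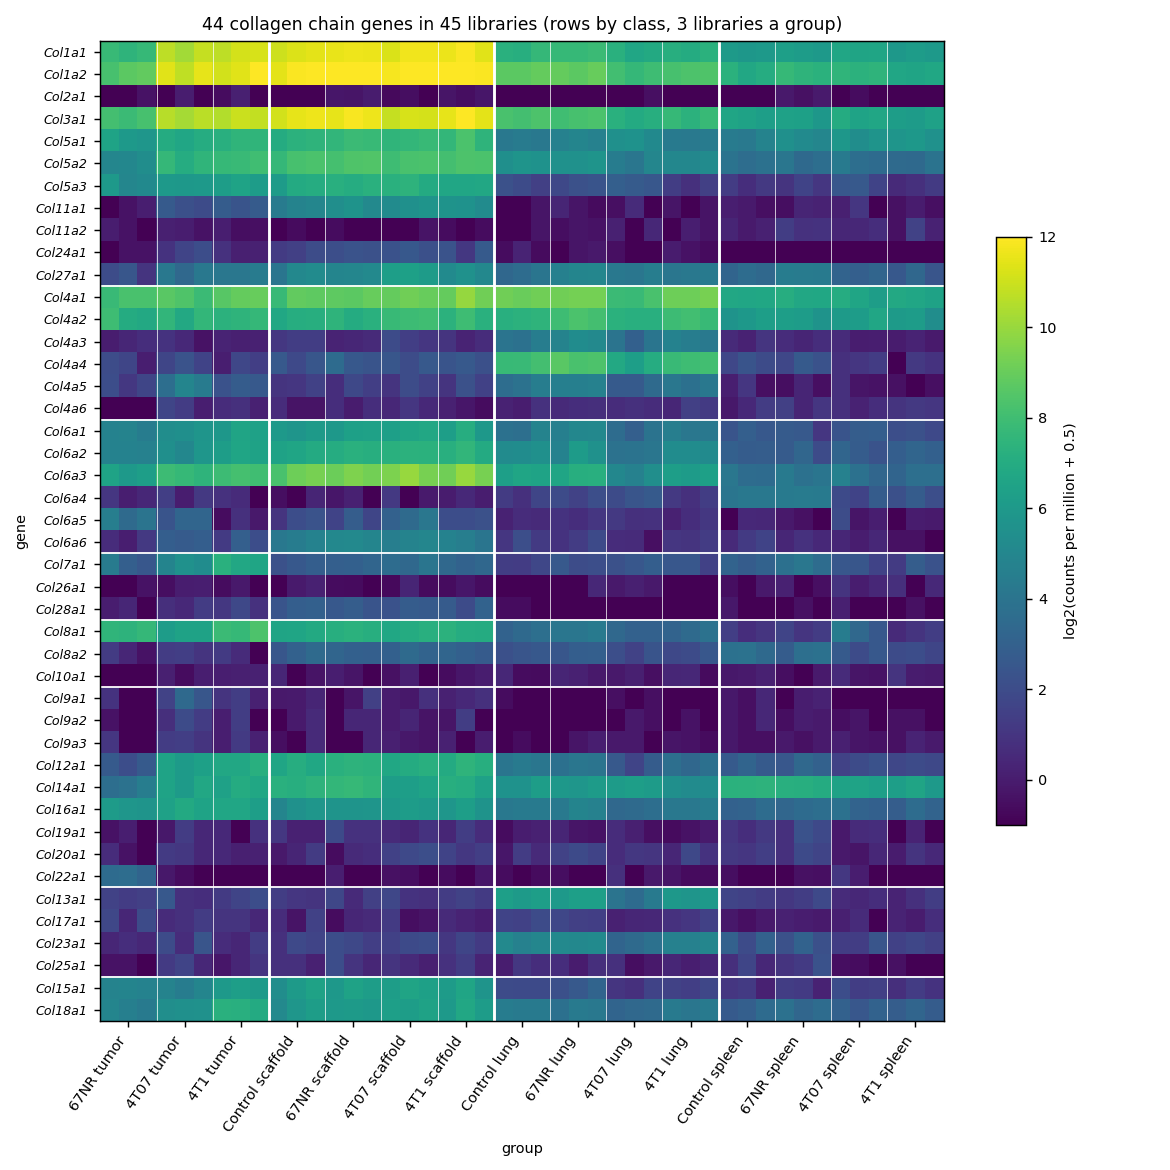
Levels of all 44 chain genes (rows, by class) in the 45 libraries (columns, 3 a group), as log2(CPM + 0.5), with white lines between tissues and classes. The 67NR tumors lack the bright Col1a1, Col1a2 and Col3a1 rows of the other tumors and of every scaffold, Col4a4, Col13a1 and Col23a1 are bright in lungs and less so in 4T07 lungs, and Col6a4 is bright in control and 67NR spleens. Rows are not scaled by gene length, so colors compare libraries within a row.

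Ratios of chains that share a molecule or a fiber do not depend on the library total. The ratio of Col1a1 to Col1a2 tags ran from 0.404 to 0.741 in 67NR, 0.610 to 0.677 in 4T07 and 0.558 to 0.824 in 4T1 tumors, 0.647 to 0.732 in control scaffolds and 0.334 to 0.413 in control lungs. The tumor groups overlapped in this ratio, while both chains were higher in 4T07 and 4T1. In lungs the ratio was 0.429 to 0.488 in 67NR and 0.488 to 0.578 in 4T07, above control, and 0.382 to 0.465 in 4T1. The 4T1 lungs overlapped control lungs. Spleens ran from 0.437 to 0.525 in control, 0.383 to 0.411 in 67NR, 0.560 to 0.590 in 4T07 and 0.588 to 0.748 in 4T1. Each lung or spleen group that did not overlap its control had an exact two-sided permutation p of 0.1, and 0.233 after adjustment. The ratio of Col4a1 to Col4a2 was 0.899 to 2.64 in 67NR, 1.18 to 3.00 in 4T07 and 2.46 to 2.74 in 4T1 tumors, and these groups overlapped. In lungs it was 3.23 to 3.99 in control, 1.96 to 2.38 in 67NR, 1.51 to 2.07 in 4T07 and 2.09 to 2.92 in 4T1 mice, so each group with a tumor lay below the control lungs and the 67NR lungs overlapped the other groups with tumors. Each of these comparisons with control lungs had an exact two-sided permutation p of 0.1, the smallest that 3 against 3 allows, and 0.3 after adjustment over the comparisons of this ratio. The ratio of Col3a1 to Col1a1, chosen after values were seen, was 1.29 to 1.39 in 67NR, 0.873 to 1.05 in 4T07 and 0.759 to 0.891 in 4T1 tumors. In 4T07 scaffolds it was 0.682 to 0.740, below 1.08 to 1.15 in control, 0.964 to 1.13 in 67NR and 0.935 to 1.41 in 4T1 scaffolds. In lungs it was 1.65 to 2.05 in control, 1.24 to 1.45 in 67NR, 0.979 to 1.19 in 4T07 and 1.28 to 1.51 in 4T1 mice. Each lung group with a tumor thus lay below the control lungs. The exact permutation test gave the same smallest p of 0.1 for 4T07 against control scaffolds, 0.14 after adjustment over the 21 comparisons of this ratio. The same 2 values held for each lung group with a tumor against control lungs, and for the control tissues against each other.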

How the data were processed

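RNA from 45 samples was sequenced by the authors with Lexogen QuantSeq 3′ libraries carrying molecular identifiers. The submitters' processing notes name Trim Galore 0.5.0, STAR 2.6.0 and featureCounts; the build, annotation, strand setting and collapsing of identifiers are not given in the sources used here. The deposited values are whole-number counts per gene symbol, not normalized; 120 repeated symbols among 55487 lines were summed to 55367. Genes with more than 10 counts over a fit were tested with edgeR 4.0.16 in R 4.3.3 (TMM factors, quasi-likelihood test, Benjamini-Hochberg over all genes), 1 fit a tissue and joint fits for comparisons between tissues, checked on simulated data. Sample groups came from the labels. CPM were computed from library totals. The floor of 3 counts and the bounds drawn from it cover counting error only, while the standard errors come from the edgeR fit. Ratios were taken after adding 0.5 counts.

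The members and the gene lists were chosen with earlier results of these data known. Values in every sample are given for called members whose groups do not overlap and whose mean is at least 5 CPM (at most 8 a comparison, by log2 fold change) and for fixed members in tumors and scaffolds; other members are given by mean and SD, and pathway genes only where called in tumors at a mean of 5 CPM or more. The ratio of Col3a1 to Col1a1 was chosen after its values were seen. Alternatives were DESeq2 1.42.0, its size factors, other count filters, fits of only the groups compared, leaving out each replicate and, added after seeing the data, library totals without TMM factors, which shift the median log2 fold change of all genes by 0.24 (4T07) and 0.19 (4T1) against 67NR tumors and by -0.17 (4T07) and -0.25 (4T1) against control spleens. Promoter sequences are from RefSeq (GRCm38.p6) and no coordinate of the counting is used.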

Additional observations from a re-analysis of the deposited data

Results flagged for a closer look

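Each value below was picked out because the log2 fold change between 2 lines differed between 2 tissues by a test of the difference itself (edgeR, adjusted p below 0.05 and a fold above 2), and for each contrast the 8 members with the largest difference above 5 CPM are given. For 4T07 against 67NR, tumor minus scaffold, the differences were 4.14 for Col12a1, 3.48 for Col14a1, 2.85 for Col3a1, 2.80 for Col1a1, 2.56 for Col4a5 and 2.46 for Col1a2. Col6a5 differed by -2.88 and Col22a1 by -5.56, the latter a fitted value from a gene with 1 to 3 counts in the 4T07 tumors, lost without the 4T07 scaffold of replicate 1 or 2. For 4T1 against 67NR, tumor minus scaffold, the differences were 4.59 for Col12a1, 3.27 for Col14a1, 3.19 for Col1a1, 3.07 for Col7a1, 2.73 for Col1a2 and 2.61 for Col5a2, with -4.79 for Col6a5 and -8.93 for Col22a1, a gene with no count in 4T1 tumors, lost without the 4T1 scaffold of replicate 3. Both contrasts share the 67NR libraries.

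For 4T1 against 4T07, lung minus scaffold, the differences were 1.90 for Col4a3, 1.88 for Col13a1, 1.86 for Col23a1, 1.40 for Col6a2, 1.27 for Col6a3 and 1.21 for Col4a4, with -1.38 for Col14a1 and -1.33 for Col5a1. Without the 4T07 scaffold of replicate 1, Col4a3 was no longer called (adjusted p = 0.0546) and Col13a1 was at 1.33 (adjusted p = 0.0640), and Col4a4 lost its call in several such fits. These differences stand beside the low lung epithelium markers of the 4T07 lungs, 5693 to 14287 CPM, whose part was not tested.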

How the results depend on the processing

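A gene with at least 10 counts in every sample is a far narrower set, so fewer members were tested. The number tested and the share of all genes called under it are not given here. The counts under it are therefore not read as shares or set against the main shares. Under that filter the calls were 9 in 4T07 and 13 in 4T1 against 67NR tumors and 4 in 4T1 against 4T07 tumors, 3 in 4T07 against control scaffolds, 0 in 4T1 against 4T07 scaffolds and spleens, 4 in 4T07 and 5 in 4T1 against control spleens, 15 in control scaffolds against lungs, 14 in control scaffolds against spleens and 15 in control lungs against spleens. In tumors against scaffolds they were 13 in 67NR, 9 in 4T07 and 3 in 4T1, 7 for the 4T07 difference from 67NR and 6 for the lung to scaffold difference. Without a filter that last count was 16 and 67NR lungs gave 2 calls. With only the groups compared in the fit, 4T1 against 4T07 scaffolds gave 0. DESeq2 gave 6 in 4T07 against control spleens; the cause was not tested. Library totals gave 2 in 67NR lungs and 1 in 67NR spleens. The other 119 of 141 alternatives kept the count within 1.5 times. Of 1540 alternative values of named members, 31 were weaker and 0 reversed. Of 162 counts with 1 replicate left out, 20 did not stay within 1.5 times. Of 45 levels and ratios, 5 moved.

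With 1 replicate left out, calls were 18 to 22 and 18 to 21 in 4T07 and 4T1 against 67NR tumors and 6 to 8 between 4T1 and 4T07 tumors. Ranges were 2 to 5 in 4T07 and 0 to 1 in 4T1 against 4T07 scaffolds, 0 to 3, 13 to 18 and 0 to 1 in 67NR, 4T07 and 4T1 against control lungs, 7 to 13 in 4T1 against 4T07 lungs, 6 to 10 and 5 to 8 in 4T07 and 4T1 against control spleens and 1 to 2 in 4T1 against 4T07 spleens. The difference between lungs and scaffolds gave 8 to 15. No paired analysis was possible because the library numbers in the labels are unique and replicate numbers follow accession order, so they link no tissues of 1 mouse. Depth limits the members near 3 counts, such as Col4a6, Col10a1 and Col26a1.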
